A study of Bos taurus with 16 samples.

Results

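Breakdown of the branched-chain amino acids leucine, isoleucine and valine was followed through 8 genes in the livers of 16 Angus steers. The genes were BCAT2, BCKDHA, BCKDHB, DBT, DLD, BCKDK, IVD and MCCC1, taken from a list of enzymes of the route. The rule for them used no measured values, but the choice was made with earlier results of these data known. Each had to carry a single symbol in the platform annotation of the arrays, which all 8 did, and each was read from 1 probe set. They are 8 of 18010 genes represented that way among 26773 probe sets.

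Weaned steers that weighed 209 ± 29.4 kg at the start were fed individually on a diet based on cotton seed hulls for a gain of 1.5 kg per day. By random assignment, 8 were taken to the end of a growing phase at 301 kg and 8 to the end of a finishing phase at 576 kg, and liver RNA from each steer was hybridised to 1 array. The labels give no genotype, drug or other treatment, and body weight, age and time on feed cannot be told apart between the phases. The comparison asks how expression of the route in liver differed between heavy, finished animals and light, growing ones.

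Branched-chain amino acids are first transaminated to branched-chain keto acids, a step that is carried out largely outside the liver in mammals. The branched-chain keto acid dehydrogenase complex of the mitochondrion then commits the keto acids to oxidation. A kinase, BCKDK, phosphorylates and inactivates the complex, and a phosphatase, PPM1K, reactivates it. Beyond the complex the 3 amino acids take separate routes, with IVD and methylcrotonyl-CoA carboxylase serving leucine.

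The kinase BCKDK fell in finishing livers, by 0.30 ± 0.08 on the log2 scale (standard error of limma, n = 8 per group), and was the only member past the threshold. The catalytic and structural subunits of the complex differed little between phases, with estimates from 0.06 to 0.14 and none past the threshold. BCAT2, the mitochondrial aminotransferase, had the widest spread, with 1 finishing steer far above the others. Called members numbered 0 higher and 1 lower at a Benjamini-Hochberg adjusted p of 0.05 over all probe sets, against a background of 6.64% of probe sets called in either direction, 2.34% called higher and 4.3% called lower. Over 1 probe set per gene the background was 8.36%, so that 1 of 8 is near it.

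Of the 8 differences 7 were above 0, against 53.1% of all genes, and their median was 0.11, against 0.01 over all genes. The 7 included IVD at 0.01, which kept its sign in 8 of 16 fits that left out 1 array. Under centring on ribosomal protein genes BCKDHA was at 0.02, DBT at 0.003, BCKDHB at 0.09 and DLD at 0.08. In that setting MCCC1 was at 0.14, BCAT2 at 0.58 and IVD at -0.04. At an unadjusted p under 0.05 stood 4 members, BCKDK, MCCC1, DLD and BCAT2, where 24.7% of all genes did. The members were chosen as a pathway, with earlier results of these data known, and share samples, so no test was made over the list. Over all probe sets the calls split into 626 upward and 1151 downward, a share of 35.2% upward, and centring the arrays on ribosomal protein genes left 18.6% upward. Array medians lay between 5.57 and 5.64, and finishing replicates 5 and 6 correlated least with their own group (median r of 0.978 and 0.981, against 0.984 to 0.989 for the other arrays).

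**Figure D1:**
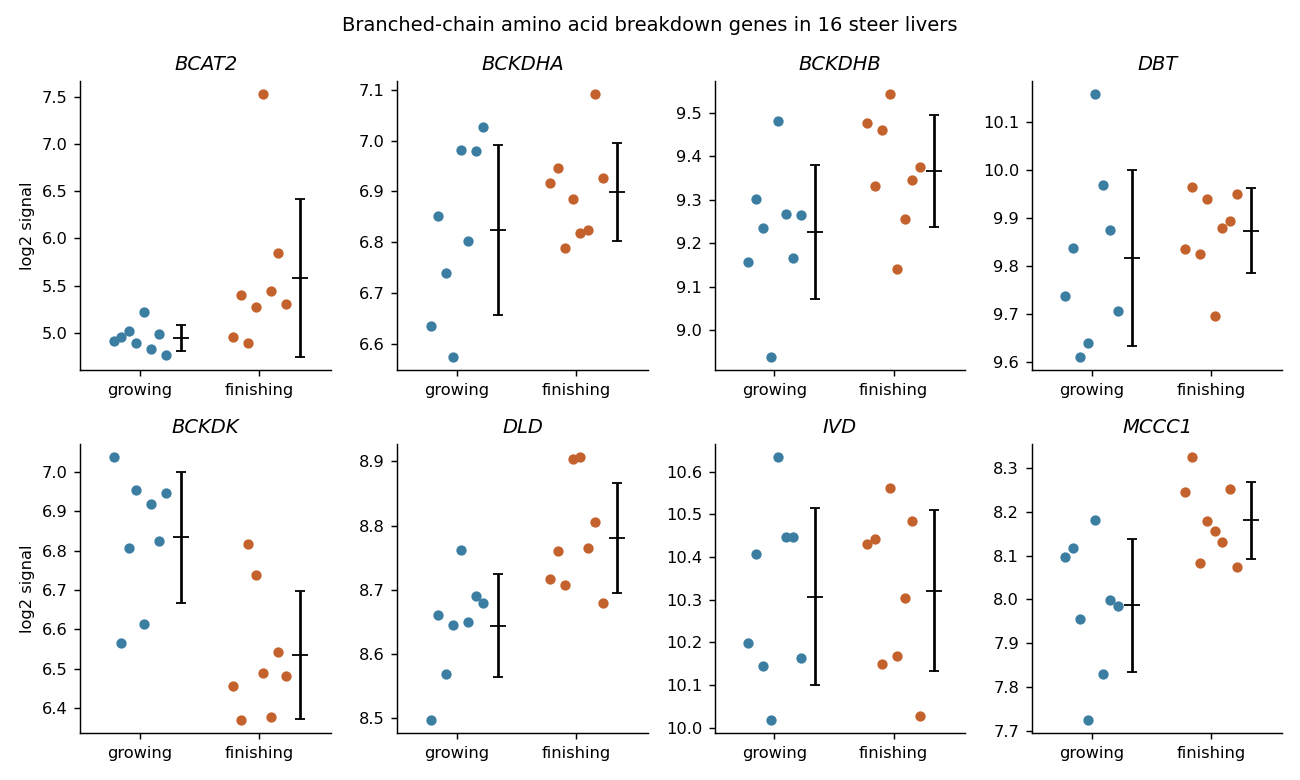
Log2 signal of each member in every array, with 8 growing steers on the left and 8 finishing steers on the right of each panel in replicate order; the bar is the mean with its SD, and each panel has its own axis. BCKDK sits lower in finishing steers, with 6 of 8 below every growing steer, and BCAT2 has 1 finishing steer at 7.53, far above the rest.

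BCKDK (probe set 12811750, Entrez gene 505005) is the kinase that switches the complex off. Its log2 signal ran from 6.57 to 7.04 with a median of 6.87 in growing steers and from 6.37 to 6.82 with a median of 6.49 in finishing steers. The groups overlapped, through low growing replicates 2 and 5 (6.57 and 6.61) and high finishing replicates 3 and 4 (6.82 and 6.74). All 8 finishing steers nevertheless lay below the growing mean, and 6 lay below every growing steer. On the linear scale the signal fell by 18.8%, with a 95% interval from -28.1% to -8.17%. The adjusted p was 0.0402 by limma, and the unadjusted exact permutation p, 2-sided over all arrangements of the 16 arrays, was 0.00513.

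The BCKDK call depended on the arrays included. With 1 array omitted at a time it failed in 11 of 16 fits, with an adjusted p between 0.0165 and 0.0797 over all 16. The 5 fits that kept it were those without growing replicates 2, 3 or 5 or finishing replicates 3 or 4. The estimate itself stayed between -0.34 and -0.27. Without finishing replicates 5 and 6 together it was -0.27 with an adjusted p of 0.131.

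**Figure D2:**
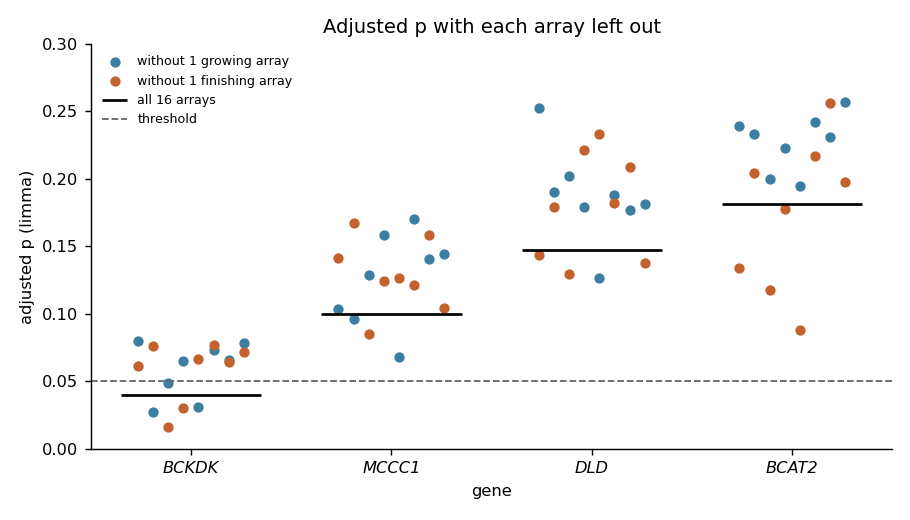
Adjusted p of the 4 members with the smallest p (limma, all probe sets) when 1 array at a time was left out, in blue for growing and orange for finishing arrays, with a black line for all 16 arrays and a dashed line at the threshold of 0.05. BCKDK falls on both sides of the threshold, while MCCC1, DLD and BCAT2 stay above it in all 16 fits.

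The phosphatase PPM1K, which opposes the kinase, differed by -0.17 ± 0.12 between the phases (SE, n = 8 per group; adjusted p = 0.457 by limma). It ran from 8.24 to 9.02 in growing and from 8.24 to 8.87 in finishing steers, so the groups shared nearly all of their range. Within that range 7 of 8 finishing steers lay below the growing mean. Setting the log2 signals of 2 probe sets against each other within an array has no meaning as a level, but its shift between phases does not depend on a scale shared by the whole array. BCKDK minus BCKDHA, the subunit the kinase phosphorylates, shifted by -0.38 from growing to finishing. That quantity ran from -0.37 to 0.40 in growing and from -0.58 to 0.03 in finishing steers, with 5 of 8 finishing steers below all growing ones and 7 of 8 below the growing mean. BCKDK minus BCKDHB shifted by -0.44, with 4 of 8 finishing steers below all growing ones and 8 of 8 below the growing mean. BCKDK minus DBT shifted by -0.36, with 1 of 8 below all growing ones and 8 of 8 below the growing mean. PPM1K minus BCKDK shifted by 0.13, from 1.28 to 2.33 in growing and from 1.50 to 2.11 in finishing steers. All 4 shifts reuse the same BCKDK values, so they are no separate evidence of its fall, and they were not tested.

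The decarboxylase part of the complex is built from BCKDHA, its alpha subunit, and BCKDHB, its beta subunit. BCKDHA (probe set 12749428, Entrez gene 282149) ran from 6.57 to 7.03 with a median of 6.83 in growing and from 6.79 to 7.09 with a median of 6.90 in finishing steers. The finishing values lay in the upper part of the growing range, and 1 finishing steer exceeded it. The difference was 0.08 ± 0.07 (SE, adjusted p = 0.598 by limma), with a 95% interval from -0.08 to 0.23.

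BCKDHB (probe set 12896683, Entrez gene 282150) ran from 8.94 to 9.48 with a median of 9.25 in growing and from 9.14 to 9.54 with a median of 9.36 in finishing steers. Growing replicate 4 was its lowest array and finishing replicate 4 its highest, and 7 of 8 finishing steers lay above the growing mean. The difference was 0.14 ± 0.07 (adjusted p = 0.301 by limma), with an interval from -0.02 to 0.30.

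DBT (probe set 12835724, Entrez gene 280759) is the lipoyl-bearing transacylase core, on which the other components assemble. It ran from 9.61 to 10.16 with a median of 9.79 in growing and from 9.70 to 9.97 with a median of 9.89 in finishing steers. All finishing values fell inside the growing range, whose SD was 0.18 against 0.09 in finishing steers. The difference was 0.06 ± 0.08 (adjusted p = 0.725 by limma), and its interval, from -0.10 to 0.22, corresponds to a change between -6.89% and 16.1%.

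DLD (probe set 12851031, Entrez gene 533910) is the dihydrolipoyl dehydrogenase that this complex shares with pyruvate dehydrogenase, alpha-ketoglutarate dehydrogenase and the glycine cleavage system. It ran from 8.50 to 8.76 with a median of 8.66 in growing and from 8.68 to 8.91 with a median of 8.76 in finishing steers. All 8 finishing steers lay above the growing mean and 4 lay above every growing steer. The difference was small and did not pass, at 0.14 ± 0.05 (adjusted p = 0.147 by limma; unadjusted exact permutation p = 0.00357). Its interval ran from 0.02 to 0.25, a signal between 1.55% and 19% higher.

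BCAT2 (probe set 12755690, Entrez gene 281643) encodes the mitochondrial branched-chain aminotransferase. It was dim, with a mean over all arrays of 5.26, under the median probe set mean of 5.60, and the table holds no detection calls. It ran from 4.76 to 5.22 with a median of 4.93 in growing and from 4.90 to 7.53 with a median of 5.36 in finishing steers. Finishing replicate 5 held the 7.53, the next finishing steer was at 5.84, and 6 of 8 finishing steers lay above every growing steer.

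The BCAT2 difference was 0.64 ± 0.27 (SE, adjusted p = 0.181 by limma; unadjusted exact permutation p = 0.00559). Without finishing replicate 5 it was 0.36 with an adjusted p of 0.0879, so that 1 steer moved the estimate by more than 1.5 times. BCAT2 is strongly expressed in muscle and other tissues outside the liver. In finishing replicate 5 the summed signal of 6 skeletal muscle markers was 7.02 on the log2 scale, inside the growing range of 6.83 to 7.21, and that of 5 adipocyte markers was 6.54, inside the growing range of 6.28 to 6.81. Every one of these markers was dimmer on average than the median probe set, so their sums lie near the low end of the scale, and the part of other tissue in the BCAT2 value was not tested. BCAT1, the cytosolic aminotransferase, was dimmer still, from 3.88 to 4.48 in growing and from 3.83 to 4.44 in finishing steers, with a difference of -0.05 ± 0.10 (adjusted p = 0.82 by limma).

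**Figure D3:**
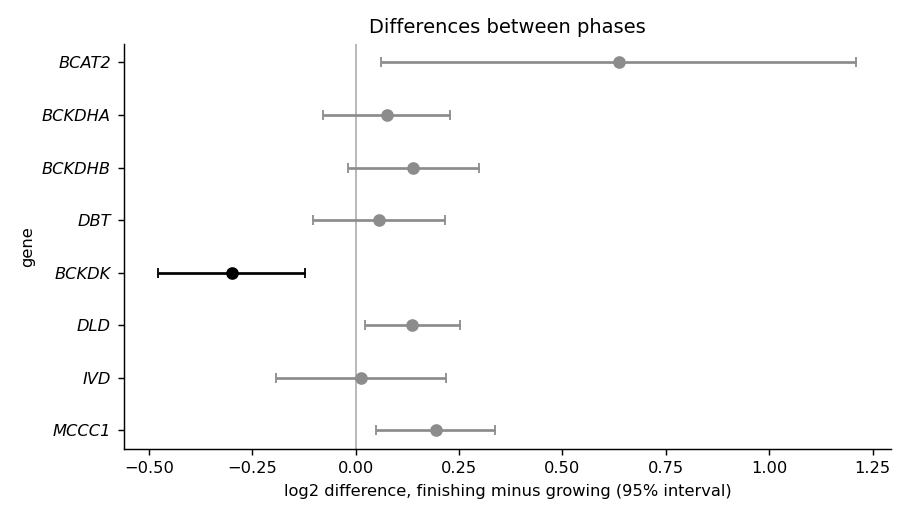
Difference in log2 signal of each member, finishing minus growing, with its 95% interval from limma (n = 8 per group); black marks an adjusted p under 0.05 and grey the others. BCKDK lies at -0.30, the 4 subunits of the complex between 0.06 and 0.14, and BCAT2 has the widest interval, from 0.06 to 1.21.

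IVD and MCCC1 act on leucine after the complex. IVD (probe set 12688847, Entrez gene 510440), isovaleryl-CoA dehydrogenase, ran from 10.02 to 10.63 with a median of 10.30 in growing and from 10.03 to 10.56 with a median of 10.37 in finishing steers. The groups overlapped across almost their whole range, and 4 of 8 finishing steers lay above the growing mean. The difference was 0.01 ± 0.10 (adjusted p = 0.957 by limma), and the interval allows a change from -12.4% to 16.3%. Its sign turned negative under quantile normalisation and under centring on ribosomal protein genes.

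MCCC1 (probe set 12680135, Entrez gene 513504) encodes the biotin-bearing alpha subunit of methylcrotonyl-CoA carboxylase. It ran from 7.73 to 8.18 with a median of 7.99 in growing and from 8.07 to 8.32 with a median of 8.17 in finishing steers. All 8 finishing steers lay above the growing mean and 3 above every growing steer. The difference of 0.19 ± 0.07 did not pass (adjusted p = 0.0997 by limma; unadjusted exact permutation p = 0.00575), and its interval ran from 3.56% to 26.3% higher. MCCC2, which encodes the beta subunit, was not analysed here.

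Members also varied between animals within a phase. Of 56 correlations (28 pairs of members in each phase, n = 8, exact permutation over 40320 pairings, 2-sided), 1 passed Benjamini-Hochberg adjustment by Pearson's r and 0 by Spearman's rho. It joined DBT and IVD in growing steers (r = 0.951, exact p = 0.000397, adjusted p = 0.0222; rho = 0.952, exact p = 0.00114, adjusted p = 0.0639). Growing replicate 5 was the highest array for both genes, and also the highest growing array for BCAT2, BCKDHB, DLD and MCCC1. Without the 2 arrays farthest from the median of DBT r was 0.933. In finishing steers the same pair had r = 0.337 (exact p = 0.429, adjusted p = 0.612) and rho = 0.333 (exact p = 0.428, adjusted p = 0.648), and without its 2 farthest arrays r was 0.013. Whether the relation differs between the phases was not tested. Another 6 of the 56 had an unadjusted exact p under 0.05, 3 of them in growing and 3 in finishing steers.

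**Figure D4:**
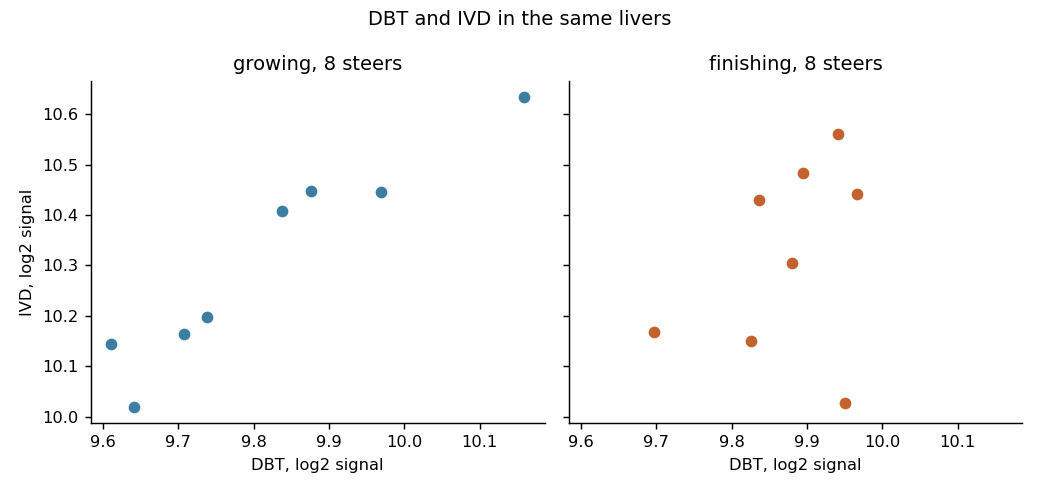
Log2 signal of IVD against that of DBT in the same livers, 8 growing steers on the left and 8 finishing steers on the right on shared axes. The growing steers run along a line (r = 0.951), while the finishing steers are gathered in a narrower range of DBT without such a line (r = 0.337).

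For each member the gene with the most similar pattern between animals was sought by Pearson's r over the 16 arrays after subtracting the phase mean, among 10159 genes brighter than the median probe set mean. These values describe a search over many genes and carry no test. BCKDHA was closest to ACAT1, the mitochondrial thiolase that cleaves the last intermediate of isoleucine breakdown, with r = 0.875 over both phases, 0.880 in growing and 0.859 in finishing steers. IVD was closest to catalase, CAT (r = 0.867), DBT to the potassium channel gene KCNN2 (r = 0.896), BCKDHB to ETAA1 (r = 0.892) and MCCC1 to TMTC4 (r = 0.819). BCKDK was closest to LOC777594 (r = 0.834) and DLD to LOC616063 (r = 0.842). BCAT2 was closest to B3GALNT2 (r = 0.945), but without finishing replicate 5 r was 0.771, and in growing steers alone it was -0.27.

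The list of later steps of leucine, valine and isoleucine breakdown had 12 genes measured, with 0 called and differences from -0.16 to 0.22. In either direction 8.36% of all genes were called. ALDH6A1, the methylmalonate semialdehyde dehydrogenase of valine breakdown, was named after its values were seen. It ran from 11.53 to 11.86 in growing and from 11.81 to 12.14 in finishing steers, with a difference of 0.22 ± 0.07 that did not pass (adjusted p = 0.0596 by limma). It did pass with a variance trend and robust estimation, with dim probe sets left out, and with only probe sets of 1 symbol tested. AUH, which hydrates methylglutaconyl-CoA in the leucine route, had a difference of 0.09 ± 0.07 (adjusted p = 0.45 by limma).

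The list of first steps, regulation and transport had 9 genes measured, and 0 were called, against 8.36% of all genes. Its differences ran from -0.17 for PPM1K to 1.33 for SLC7A5, which is taken up under the other observations. An unadjusted p under 0.05 by limma was seen for 3 of the 9, and for 24.7% of all genes. SLC25A44, the mitochondrial carrier of branched-chain amino acids, had a difference of -0.01 ± 0.08 (adjusted p = 0.948 by limma). KLF15, a transcription factor known in mouse to induce genes of the route, had a difference of 0.11 ± 0.07 (adjusted p = 0.335).

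Of 14 genes of the sister dehydrogenase complexes and of lipoylation, 1 was called higher and 1 lower. Over all genes 8.36% were called in either direction, the share to set beside this and the later lists. Both called genes belong to alpha-ketoglutarate dehydrogenase. OGDH, its decarboxylase, ran from 8.94 to 9.65 with a median of 9.31 in growing and from 9.40 to 10.81 with a median of 10.17 in finishing steers. It rose by 0.88 ± 0.16 (SE, adjusted p = 0.00469 by limma), with 7 of 8 finishing steers above all growing steers. DLST, its succinyltransferase core, fell by 0.26 ± 0.07 (adjusted p = 0.0434), with 7 of 8 finishing steers below all growing steers. The OGDH call was kept in 16 of 16 fits that left out 1 array, and the DLST call in 4. With a replicate block the DLST call was lost (adjusted p = 0.0935 by limma). The pyruvate dehydrogenase subunits PDHA1, PDHB and DLAT did not pass, at 0.15, -0.09 and 0.04 (adjusted p of 0.344, 0.538 and 0.872).

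The pyruvate dehydrogenase kinases belong to the same protein family as BCKDK. Of 7 kinases, phosphatases and phosphatase regulators of that complex, 2 were called higher and 0 lower. PDK1 ran from 7.37 to 8.46 in growing and from 8.62 to 8.97 in finishing steers, without overlap, and rose by 0.67 ± 0.13 (SE, adjusted p = 0.0069 by limma); of all probe sets 0.904% had groups without overlap. PDP2, a phosphatase, rose by 0.78 ± 0.16 (adjusted p = 0.00752), with 7 of 8 finishing steers above all growing steers. PDK2 had a difference of 0.04 ± 0.09 (adjusted p = 0.854), and PDK4 one of 0.93 ± 0.35 that did not pass (adjusted p = 0.129), with finishing steers spread from 7.86 to 10.20. Calls for PDK1 and PDP2 were kept in 16 of 16 fits that left out 1 array.

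Of 6 biotin-dependent carboxylases and biotin ligase genes measured, 0 were called higher and 1 lower. HLCS, the ligase that attaches biotin to MCCC1 and the other carboxylases, fell by 0.35 ± 0.10 (SE, adjusted p = 0.0471 by limma), from a median of 7.48 in growing to 7.03 in finishing steers. The groups overlapped through growing replicates 3 and 4 (6.98 and 7.08), and 12 of 16 fits with 1 array omitted lost the call. It was also lost under quantile normalisation (adjusted p = 0.0637 by limma), with a replicate block (adjusted p = 0.115) and without finishing replicates 5 and 6 (adjusted p = 0.139). Of 7 acyl-CoA dehydrogenase relatives of IVD and their electron carriers, 1 was called higher and 0 lower. ACADL, the long-chain enzyme, rose by 0.53 ± 0.13 (adjusted p = 0.0258 by limma), with 6 of 8 finishing steers above all growing steers. It lost its call in 4 of 16 fits with 1 array omitted. The call was also lost with a replicate block (adjusted p = 0.0823) and without finishing replicates 5 and 6 (adjusted p = 0.0747).

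**Figure D5:**
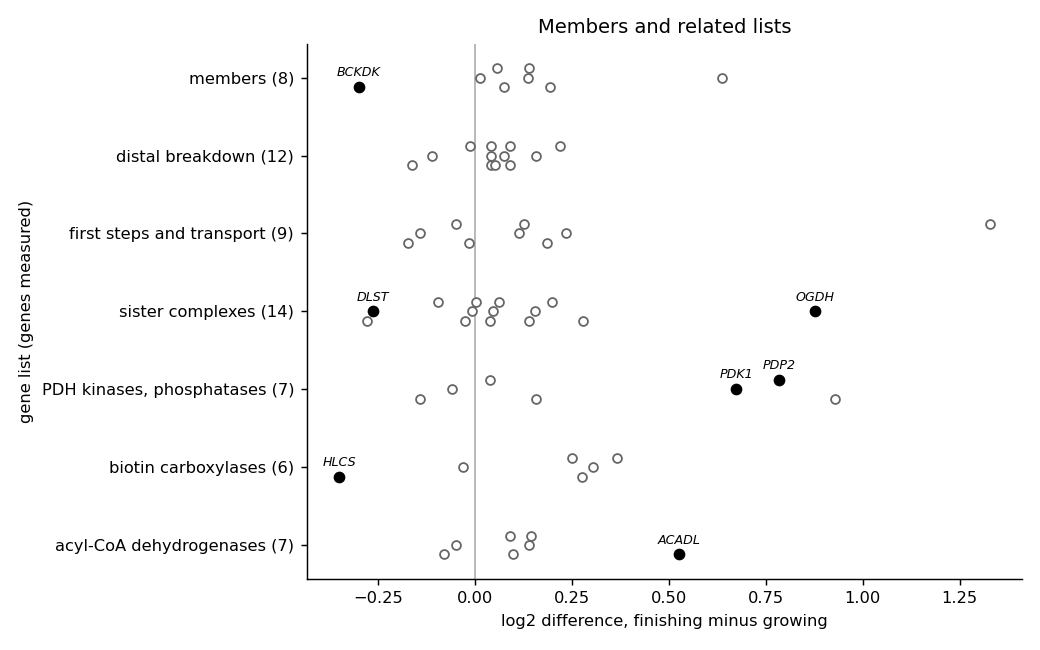
Difference in log2 signal, finishing minus growing, for the 8 members and for the 55 measured genes of 6 related lists, 1 point per gene; filled points have an adjusted p under 0.05 (limma, all probe sets) and are named. The 6 filled points outside the members run from HLCS at -0.35 to OGDH at 0.88. The lists of later steps and of first steps, regulation and transport hold none, where 8.36% of all genes were called.

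Several marker genes of other liver cells were lower in finishing steers. Called lower at an adjusted p under 0.05 (limma) were 7 of 8 stellate cell and fibroblast markers and 4 of 10 macrophage markers. So were 3 of 6 T and NK lymphocyte markers, 2 of 7 endothelial markers and 3 of 4 cell division genes. In each of these lists 0 were called higher, and 8.36% of all genes were called in either direction. Differences above 0 were seen for 2 macrophage and 2 endothelial markers, among them CD163 at 0.48 (adjusted p = 0.244 by limma). The summed stellate and fibroblast signal was 11.57 to 11.82 in growing and 10.89 to 11.32 in finishing steers on the log2 scale. The summed signal was 13.36 to 13.89 and 12.56 to 13.69 for macrophages, 9.03 to 9.87 and 8.54 to 9.24 for lymphocytes, 12.60 to 12.82 and 12.43 to 12.71 for endothelial cells, and 7.40 to 8.72 and 7.08 to 7.42 for cell division genes, growing first. Of 8 hepatocyte markers 1 was called lower, AHSG, and the summed signal was 16.16 to 16.21 in growing and 16.06 to 16.15 in finishing steers. Of cholangiocyte, muscle and adipocyte markers 0 of 5, 0 of 6 and 0 of 5 were called. No marker was at 0 on this scale, which has no detection calls. The part of these shifts in the BCKDK, DLST and HLCS results was not tested, and in whole liver fewer cells of a type and less RNA per cell cannot be told apart.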

How the data were processed

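Per the labels' protocols, Trizol-extracted total RNA was turned into biotin-labelled cRNA for Affymetrix arrays, and GCOS 1.2 and Partek 6.4 appear in the submitters' processing notes, with no role stated. The authors deposited 1 value per probe set and array, read here as a log2 signal because values lay between 1.48 and 14.1, and nothing further was done to them; the authors' summarisation and normalisation are not given in the sources used here. No array duplicated another. Of 26773 probe sets 18457 carried 1 symbol, 688 several and 7628 none here; every gene name rests on that platform annotation. The labels describe cRNA labelling primed with oligo(dT), whereas the annotation seems to be of a whole-transcript gene array; which array was used is unsettled here, so what each probe set measures is too. All 8 members kept their symbol in the RefSeq table of ARS-UCD2.0. A gene with several probe sets was represented by the one with the highest mean.

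Finishing was compared with growing by limma 3.58.1 in R 4.3.3 (lmFit, eBayes without trend, 2-sided), adjusted by Benjamini-Hochberg over all probe sets at 0.05. Errors of differences are standard errors of that fit. The fit was tested on simulated data with independent normal noise and no outliers or array shifts, so that check does not test the calls reported. Exact permutation p-values of members are unadjusted. Summed marker signals are log2 of the sum of linear signals. The members and lists were chosen with earlier results of these data known. Named are all members, the genes of the related lists past the threshold, and a fixed set of enzymes and regulators; exceptions are marked in the text. Alternatives were other normalisations, variance models, array weights, filters, thresholds, a replicate block and leaving out arrays; leaving out finishing replicates 5 and 6 together was added after seeing the data. Sampling dates and hybridisation batches were not used here, and the number of arrays limits the precision.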

Additional observations from a re-analysis of the deposited data

Results flagged for a closer look

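BCAT2 in finishing replicate 5 stood apart from its group at 7.53, with the nearest finishing steer at 5.84. Its gap to that steer divided by the group's range exceeded the Dixon critical value at 95% for 8 samples. It was 1 of 28 groups examined (14 genes in 2 phases), and chance alone marks about 1 group in 20. The same array correlated least with its own group (median r = 0.978).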

How the results depend on the processing

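The number of arrays limits what could be seen: intervals of the 4 complex subunits reach up to 0.30 on the log2 scale, for BCKDHB. With an adjusted p under 0.01, 431 probe sets, 0 members and 3 related genes passed, against 1777, 1 and 6, and BCKDK kept its difference of -0.30 without passing. The replicate block gave 910 probe sets, 0 members and 3 related genes, with BCKDK at -0.30 (adjusted p = 0.0711). Deviations of same-numbered steers from their phase means correlated from -0.15 to 0.041, which cannot settle whether such steers shared more than a number. Without finishing replicates 5 and 6 there were 942 probe sets and 0 members, with BCKDK at -0.27 (adjusted p = 0.131). Leaving out 1 array at a time gave 1282 to 2205 probe sets, 0 to 1 members (0 in 11 of 16 fits) and 3 to 6 related genes, with 3 without growing replicate 8, finishing replicate 2 or finishing replicate 8. GCSH passed without growing replicate 5, SLC7A5 without finishing replicate 1 or 3, and SLC3A2 without finishing replicate 3. BCKDK then ran from -0.34 to -0.27 and IVD from -0.028 to 0.060. IVD turned to -0.0019 under quantile normalisation and -0.041 under centring on ribosomal protein genes. Under the 7 other settings BCKDK stayed past the threshold. No other member passed the threshold in any of the limma fits run. Averaging probe sets could change nothing, since each member has 1, and BCAT2 has no value once dim probe sets are left out.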

Other observations

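The array with the high BCAT2 signal also held the highest signal of SLC7A5, the plasma membrane exchanger of leucine and other large neutral amino acids, a gene named after its values were seen. SLC7A5 ran from 4.62 to 5.68 with a median of 5.06 in growing steers and from 4.82 to 8.84 with a median of 6.36 in finishing steers. It was at 8.84, 7.60, 7.18 and 6.74 in finishing replicates 5, 6, 8 and 4, and finishing replicates 1, 2 and 3 lay within the growing range. Its difference of 1.33 ± 0.47 did not pass (SE, adjusted p = 0.103 by limma, n = 8 per group), but passed without finishing replicate 1 or finishing replicate 3. SLC3A2, the heavy chain with which SLC7A5 pairs, had 7 of 8 finishing steers above all growing steers and a difference of 0.24 ± 0.09 that did not pass (adjusted p = 0.114) except without finishing replicate 3. OGDH was also highest in finishing replicate 5, at 10.81. That array correlated least with its own group. It was also the highest finishing array for DLD and DLST and the lowest for BCKDHB and DBT. Whether its BCAT2, SLC7A5 and OGDH signals are related was not tested.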
